A study of Mus musculus with 8 samples.

Results

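The 56 genes described here encode proteins of the kinetochore, of the spindle checkpoint and of the machinery that carries cells into and through mitosis. They were taken by symbol from the gene table of an RNA sequencing experiment on SV-LECs, and each of the 56 symbols matched 1 row among the 55471 genes of the table. SV-LECs are described as a mouse lymphatic endothelial cell line derived from mesenteric adventitial tissue and immortalized with SV40. SV40 usually immortalizes cells through its large T antigen, which binds p53 and the retinoblastoma proteins, so that the cell cycle of such a line differs from that of primary cells. Both groups were this 1 line, grown in high glucose DMEM with serum. The untreated group received nothing further, and the other group received 10 ng/ml TGFβ1 for 72 h. Each group was sequenced in 4 libraries from poly(A) RNA, with single-end reads of 75 bases. The Methods of the study call the 4 samples of a group technical replicates, so the errors and p-values given here cover the spread between these libraries and not that between independent experiments.

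At mitosis each pair of sister chromatids is held at a centromere whose chromatin carries the histone variant CENP-A. The inner kinetochore is built on this chromatin, the outer kinetochore binds the microtubules of the spindle, and the spindle checkpoint delays anaphase while a kinetochore lacks microtubules. RNAs of most of these genes accumulate in G2 and mitosis and are low in resting cells, so their level in a bulk sample follows the share of cycling cells as well as the level in each cell. Fewer cells in G2 and mitosis and less RNA in each such cell cannot be told apart in these data.

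Total counts were between 18952504 and 26386941 per library. Counts are given as CPM, scaled to the library size after TMM normalization, a method that corrects library sizes for differences in RNA composition, and 3 counts, taken as the floor for counting error alone, corresponded to 0.113 to 0.162 CPM. Every library carried at most 3 counts of Lyve1 and at most 2 of Prox1 and Cdh5, and Tie1 had 0 counts in all 8. Pecam1 had 1 to 3 counts in untreated and 3 to 5 in treated libraries. These genes define lymphatic or blood endothelial cells, and 5 of the 12 lymphatic and endothelial markers examined never exceeded 3 counts. Only 5 of the 12 had enough counts to be tested. The lymphatic endothelial identity given to the line is thus not borne out by these defining genes. Other markers of the list were present, with 342 ± 19.5 CPM of Pdpn, 45.8 ± 4.24 of Nr2f2 and 21.6 ± 1.23 of Flt4 in untreated libraries, and the summed level of the 12 was 401 to 439.5 CPM in untreated and 384 to 393 in treated libraries. That sum is mostly Pdpn, and its members differed in direction, with log2 fold changes of -0.13 for Pdpn, -0.95 for Nr2f2, 0.44 for Flt4 and 0.93 for Kdr. The summed level of 5 fibroblast markers was 279 to 304 CPM in untreated and 165 to 178 in treated libraries. Its tested genes did not move together: the log2 fold change was -1.47 for Pdgfra, -1.07 for Thy1 and 0.63 for Pdgfrb. The sum of 5 macrophage and leukocyte markers was 6.12 to 8.30 CPM in untreated and 16.5 to 19.0 in treated libraries, mostly from Cd68 (log2 fold change 1.19). Csf1r rose too, from 3 to 10 counts in untreated to 19 to 33 in treated libraries. Lyz2 had 1 to 3 and 10 to 13 counts, while Ptprc did not exceed 1 count and Adgre1 was at 0. The summed level of 4 epithelial markers was 0.304 to 1.14 CPM in untreated and 2.36 to 4.11 CPM in treated libraries. Krt8 and Krt18 had log2 fold changes of 1.99 and 2.47, and Epcam and Cdh1 were too low to be tested. The part of these differences in the results on mitotic genes was not tested.

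After TGFβ1 treatment, RNA of nearly all of these genes was lower. Of the 56 members, 54 were significantly lower and 2, Cenpt and Zwint, were significantly higher in treated SV-LECs, with p-values from edgeR's likelihood ratio test adjusted by the Benjamini-Hochberg method (false discovery rate, FDR, under 0.05) over the 13818 genes that passed the filter on low counts. All 56 members passed that filter. Among all genes tested 38.0% were significantly lower and 37.6% significantly higher, so a call in itself was common, whereas the size of the change was not. The median log2 fold change of the members was -1.71, against -0.01 over all genes tested. The change was below -1 with an FDR under 0.05 in 49 members, against 6.56% of all genes, and below -2 in 11 members, against 1.51%. The 11 were Ska1, Spc24, Ccnb2, Cenpf, Aurkb, Ccna2, Nusap1, Ndc80, Plk1, Bub1b and Nuf2. In glmTreat of edgeR, which asks whether a change exceeds 1 on the log2 scale, 47 members were significantly lower, against 4.40% of all genes. All 4 treated libraries lay below all 4 untreated libraries in 54 members, against 35.1% of all genes, and above them in 2, against 34.7%. The largest FDR among the members was 9.03e-07, for Zwint, in edgeR's likelihood ratio test. For several others it was too small to be represented, so the likelihood ratio (LR) statistic is given in its place.

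**Figure D1:**
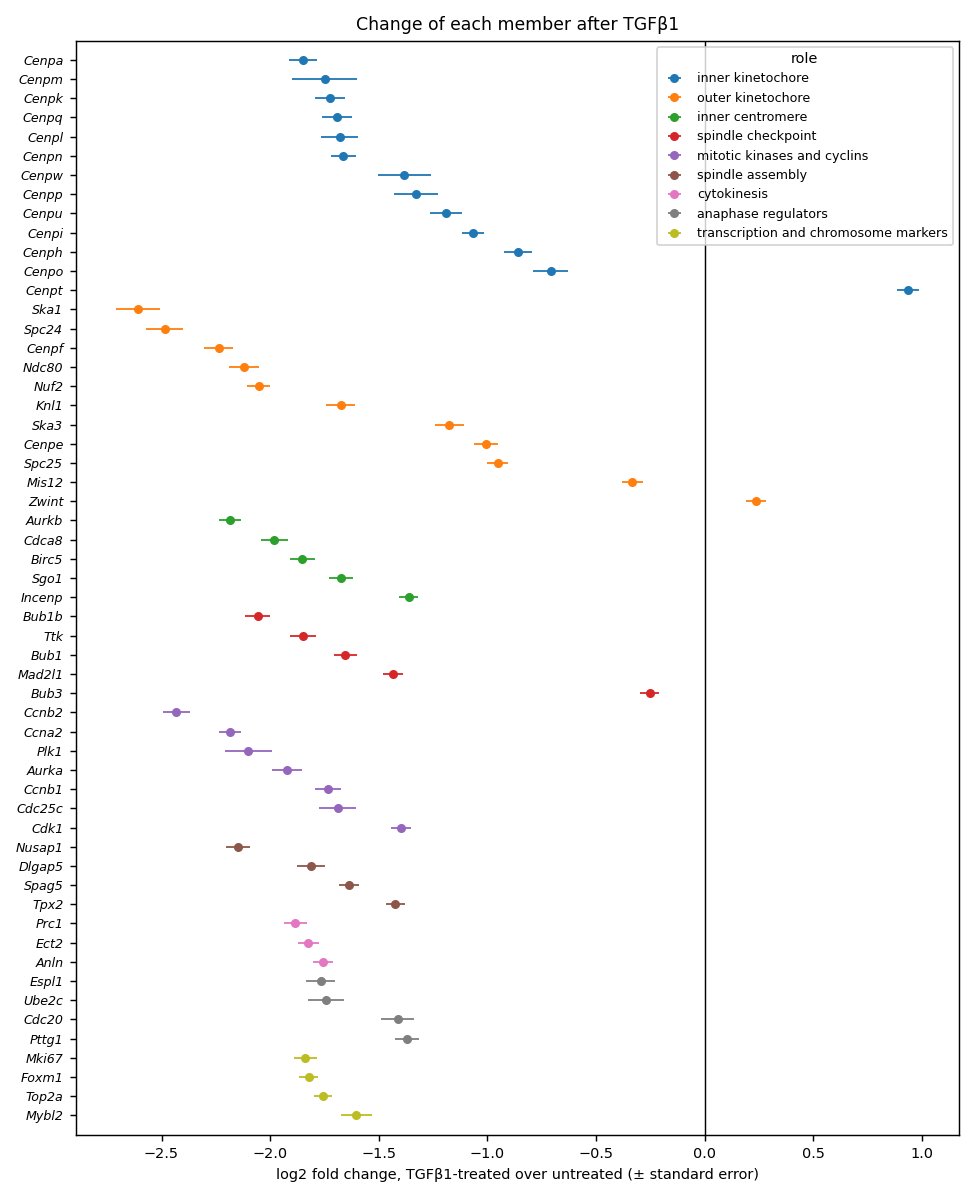
Log2 fold change of each of the 56 members, TGFβ1-treated over untreated, as points with bars of 1 standard error, coloured by role and ordered within each role. The vertical line marks no change, and only Cenpt (0.94) and Zwint (0.24) lie to its right.

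Together the members took 0.656, 0.659, 0.672 and 0.639% of all counts in untreated replicates 1 to 4, and 0.230, 0.221, 0.229 and 0.228% in treated replicates 1 to 4. The mean share fell from 0.657% ± 0.0137 to 0.227% ± 0.00397 (SD, n = 4 libraries each). Untreated replicate 4 was the lowest library of its group in 33 of the 56 members and replicate 3 the highest in 28, and treated replicate 2 was the lowest of its group in 33. These shifts were small beside the treatment: the median deviation of the members from their group mean was -0.06 on the log2 scale in untreated replicate 4 and -0.07 in treated replicate 2.

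**Figure D2:**
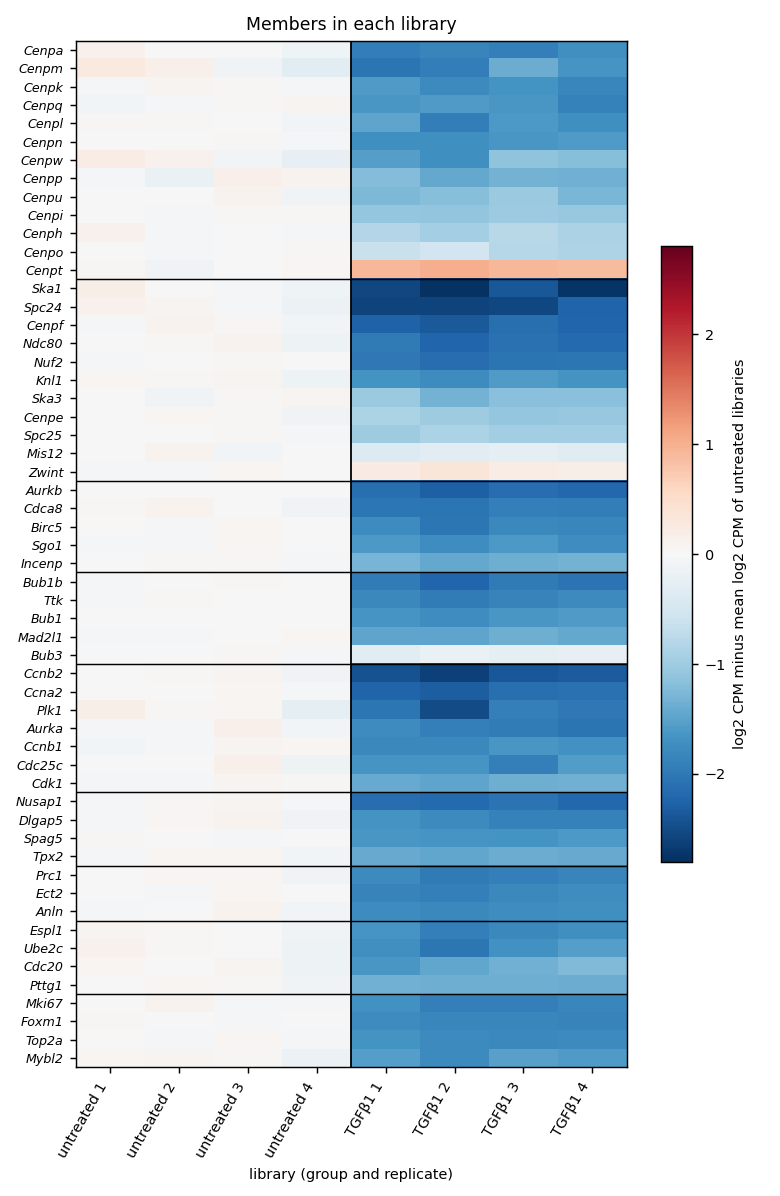
Log2 CPM of each member (rows, grouped by role) in each of the 8 libraries (columns), minus its mean log2 CPM in the untreated libraries, from blue (lower) to red (higher). The 4 treated columns are blue in all rows except those of Cenpt and Zwint, and the rows of Bub3 and Mis12 are pale.

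Many genes with peak expression in G2 and mitosis carry a cell cycle genes homology region (CHR) in their promoter, often with CCAAT boxes upstream of it. The MuvB complexes DREAM, B-MYB-MuvB and FOXM1-MuvB bind the CHR, and NF-Y binds CCAAT. The promoter windows of RefSeq, on GRCm38.p6 and from 250 bases before to 50 bases after each annotated start, were available for 47 of the members in 52 windows. Spc24, Ska1, Aurkb, Incenp, Ccna2, Cdc25c, Tpx2, Dlgap5 and Foxm1 had no window. The CHR was searched as TTTGAA or TTTAAA and the CCAAT box as CCAAT, each on both strands. The letters TTTAAA read the same on both strands and were counted once. CHR letters were in 34 of the 52 member windows (65.4%), against 27.6% of all 32851 windows of the table and 19.4% of the 13023 windows of genes tested for expression. CCAAT letters were in 75.0% of member windows, against 37.4% of all windows and 38.1% of those of tested genes. Both were in 53.8% of member windows, against 10.7% and 7.62%. Words of different motifs may share bases at their ends. E2F letters, searched as TTTCCCGC or TTTGGCGC on both strands, were in the windows of Cenpl and Cenpm only, 3.85% of member windows, against 1.56% and 2.91%. The windows were matched by symbol and their letters describe the sequence, not binding.

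Stretches of 8 of these windows are shown because they hold the letters in members that fell strongly (Ccnb2, Cenpf, Mki67, Top2a), in the activators of entry into mitosis and of anaphase (Cdk1, Cdc20), and in the 2 members that rose (Zwint, Cenpt). Sequences run 5′ to 3′ on the strand of the gene, and capitals mark CHR and CCAAT letters on either strand, so that CCAAT on the opposite strand reads ATTGG and TTTGAA reads TTCAAA. They are the bases at chr9:70421555-70421734, chr10:69352913-69353032, chr4:118437344-118437463, chr11:99024190-99024309, chr7:135716460-135716579 and chr1:189688127-189688246 on the minus strand, at chr10:72654726-72654845 on the plus strand and at chr8:105852163-105852258 on the minus strand of GRCm38.p6, from RefSeq.
Ccnb2: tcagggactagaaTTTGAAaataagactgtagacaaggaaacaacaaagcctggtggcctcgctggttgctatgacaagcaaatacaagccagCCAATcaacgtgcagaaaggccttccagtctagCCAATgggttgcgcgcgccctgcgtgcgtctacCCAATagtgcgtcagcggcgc
Cdk1: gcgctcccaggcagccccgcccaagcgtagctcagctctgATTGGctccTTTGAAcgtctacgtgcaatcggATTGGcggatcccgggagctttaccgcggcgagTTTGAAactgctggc
Cdc20: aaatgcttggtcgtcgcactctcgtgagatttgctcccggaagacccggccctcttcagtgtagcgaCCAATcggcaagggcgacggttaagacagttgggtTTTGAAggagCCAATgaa
Top2a: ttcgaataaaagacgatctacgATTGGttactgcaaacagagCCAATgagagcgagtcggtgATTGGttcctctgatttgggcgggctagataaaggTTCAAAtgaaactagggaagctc
Mki67: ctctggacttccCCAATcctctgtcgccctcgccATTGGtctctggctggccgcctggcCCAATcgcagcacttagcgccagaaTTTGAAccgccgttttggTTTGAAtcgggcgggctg
Cenpf: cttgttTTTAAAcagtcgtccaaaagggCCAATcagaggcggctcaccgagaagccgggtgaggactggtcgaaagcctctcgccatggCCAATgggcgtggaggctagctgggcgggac
Zwint: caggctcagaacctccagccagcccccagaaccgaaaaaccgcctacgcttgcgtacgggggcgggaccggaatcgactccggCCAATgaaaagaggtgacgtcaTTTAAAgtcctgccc
Cenpt: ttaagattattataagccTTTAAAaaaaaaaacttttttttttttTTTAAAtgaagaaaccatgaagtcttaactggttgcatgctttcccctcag

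These stretches ended 1 base before the annotated start for Ccnb2, Cdk1, Cdc20, Top2a and Zwint, 41 bases before it for Cenpf, 81 for Mki67 and 155 for Cenpt. In Ccnb2 and Cenpf the CHR letters shown lie upstream of the CCAAT letters. Their windows also held TTTGAA downstream of these, beyond the stretches, at positions 5 to 10 in Ccnb2 and 3 to 8 in Cenpf. The windows of Top2a and Cdk1 held further letters upstream of their stretches. In Zwint CCAAT letters lay at positions -37 to -33 and 14 to 18 from the start and TTTAAA between them at -15 to -10. The TTTAAA letters of Cenpt lay at positions -232 to -227 and -205 to -200 from the start, in a run rich in A and T, and its window held no CCAAT letters. The Cenpt stretch shown lies within the gene and holds 0 exonic bases, so it is intron in the GENCODE annotation. The RefSeq start of that window lies 1270 bases inside Cenpt as GENCODE annotates the gene, so the window is not the region before the outermost start. The same held, by more than 250 bases, for 9 of the 52 member windows, in Cdca8, Cenpk, Cenpm, Cenpo, Cenpq, Pttg1, Bub3 and Cenpt, with 2394 bases for Cdca8 as the farthest. Members with CHR letters in a window had a median log2 fold change of -1.76 (31 genes, from -2.43 to 0.94) and those without a median of -1.52 (16 genes, from -2.15 to -0.33), so the ranges overlapped over most of their length. With CCAAT letters the median was -1.71 (34 genes) and without them -1.60 (13 genes).

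**Figure D3:**
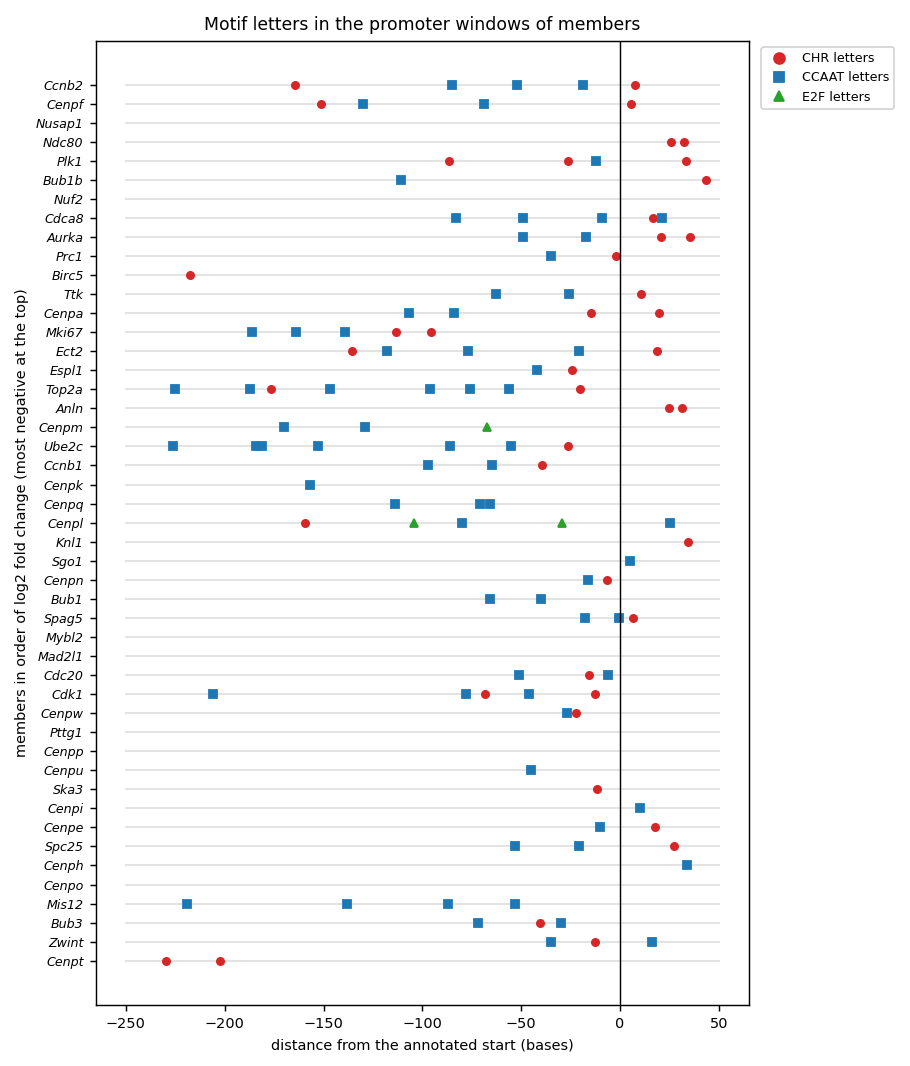
Position of CHR, CCAAT and E2F letters in 1 promoter window for each of 47 members, as the distance in bases from the annotated start, with members ordered from the most negative log2 fold change at the top (Ccnb2, -2.43) to the most positive at the bottom (Cenpt, 0.94). Grey lines span the window, and letters occur along the whole order, with no letters in rows such as Nuf2, Nusap1, Pttg1 and Cenpo.

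The inner kinetochore is represented by CENP-A and 12 subunits of the constitutive centromere associated network (CCAN), which bridges CENP-A chromatin and the outer kinetochore. Of these 13 genes 12 were significantly lower and 1 was significantly higher, with a median log2 fold change of -1.38. Cenpn, whose protein recognizes CENP-A nucleosomes, had 55.2, 56.4, 57.4 and 54.8 CPM in untreated replicates 1 to 4 and 17.0, 16.9, 18.1 and 18.5 CPM in treated replicates 1 to 4. The levels of the 4 libraries of a group lay within a few CPM of each other, and the fall was 1.66 on the log2 scale (SE 0.0571, LR 889.8). Cenpa, the centromeric histone itself, had 117, 108, 110.0 and 99.7 CPM without and 28.5, 30.3, 28.6 and 33.0 CPM with TGFβ1, a 3.60-fold lower mean (log2 fold change -1.85, SE 0.0646, LR 807). Its untreated replicate 1 was the highest and replicate 4 the lowest of the group, and neither came near the treated libraries.

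Subunits of the CCAN modules fell by different amounts. The pair Cenpl and Cenpn had log2 fold changes of -1.68 and -1.66. In the CENP-H-I-K-M module the median was -1.40, with Cenpm at -1.75, Cenpk at -1.72, Cenpi at -1.07 and Cenph at -0.86. Cenpm was the least precisely measured member, with an SE of 0.150 and 18.7 ± 3.34 CPM in untreated libraries (mean ± SD, n = 4). In the CENP-O-P-Q-U module the median was -1.26, from -1.69 for Cenpq through -1.33 for Cenpp and -1.19 for Cenpu to -0.71 for Cenpo. Reads of Cenpu, Cenpo and Cenpp may be shared with a neighbour, since 21.9, 17.4 and 9.76% of their 75-base stretches occur on the opposite strand in exons of other genes (Primpol for Cenpu), and the use of strand in counting is not given in the sources used here.

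Cenpt, whose protein carries a histone fold at one end and recruits the NDC80 complex with the other, was the exception in this group. It had 63.1, 57.2, 62.4 and 64.1 CPM in untreated replicates 1 to 4 and 117, 124, 117 and 113 CPM in treated replicates 1 to 4. All treated libraries stood above all untreated ones, and the mean rose from 61.7 ± 3.09 to 118 ± 4.47 CPM (SD, n = 4 each). The log2 fold change was 0.94 (SE 0.0509, FDR = 4.80e-74 in edgeR's likelihood ratio test). Cenpt lies on chromosome 8 of GRCm38 from 105844673 to 105853278, on the minus strand. Of its 75-base stretches 0.173% occur on the opposite strand in exons of other genes. Its direct partner Cenpw, with which CENP-T forms a histone fold dimer, fell from 35.9 ± 4.87 to 13.7 ± 2.63 CPM (log2 fold change -1.38, SE 0.123). The remaining subunits of that module, Cenps and Cenpx, which are not among the 56, had log2 fold changes of -1.05 and -0.30.

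The outer kinetochore comprises the NDC80 complex, which holds the microtubule, the KNL1 and MIS12 scaffold, the SKA complex and the large proteins CENP-E and CENP-F. Among its 11 members 10 were significantly lower and 1 was significantly higher, with a median log2 fold change of -1.68 and the widest spread of all roles, from -2.61 for Ska1 to 0.24 for Zwint. Nuf2, a subunit of the NDC80 complex, had 101, 103, 106 and 101 CPM in untreated and 25.6, 23.3, 24.7 and 25.3 CPM in treated replicates 1 to 4. Both groups were tight, and the mean level of treated libraries was 24.1% of that of untreated ones (log2 fold change -2.05, SE 0.0522, LR 1596). Cenpf, which encodes a very large protein of the fibrous corona, had 68.0, 74.9, 72.6 and 66.8 CPM and 14.8, 13.8, 16.3 and 15.0 CPM, a log2 fold change of -2.24 (SE 0.0672, LR 1145). In the plot by library these rows are among the darkest of the treated columns.

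The 4 subunits of the NDC80 complex had a median log2 fold change of -2.09. Ndc80 and Nuf2, the pair at the microtubule end, had log2 fold changes of -2.12 and -2.05, while Spc24 and Spc25, the pair at the inner end, had -2.49 and -0.95. Spc24 had 61.0, 59.1, 55.5 and 50.8 CPM in untreated and 9.41, 9.30, 9.59 and 11.9 CPM in treated libraries, and Spc25 had 80.8, 79.8, 82.0 and 76.2 and 40.1, 43.3, 40.4 and 40.9 CPM. Ska1, the microtubule binding subunit of the SKA complex, fell most of all members, from 30.7 ± 2.47 to 5.06 ± 0.658 CPM, 6.09-fold, while Ska3 fell by 1.18 and Ska2, which is not among the 56, fell by 0.82 on the log2 scale. Knl1, the platform for checkpoint proteins, fell by 1.68. Mis12 encodes a subunit of the MIS12 complex, on which KNL1 and NDC80 are assembled. It had 93.3, 99.1, 88.4 and 91.7 CPM without and 71.2, 74.6, 76.8 and 73.4 CPM with TGFβ1 and fell by 0.33 (SE 0.0496). The other subunits of the MIS12 complex, outside the 56, were lower too, with log2 fold changes of -0.75 for Dsn1 and -1.44 for Nsl1, and with an LR of 121 for Pmf1.

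Zwint, which encodes a KNL1 partner that helps to recruit the Rod-Zwilch-ZW10 complex, was the only outer kinetochore member that rose. It had 173, 169.8, 183 and 178 CPM in untreated replicates 1 to 4 and 207, 222, 203 and 197 CPM in treated replicates 1 to 4. The groups did not overlap, although the lowest treated library came within 14 CPM of the top untreated one. The mean rose from 176 ± 5.88 to 208 ± 10.7 CPM (SD, n = 4 each), a log2 fold change of 0.24 (SE 0.0469, FDR = 9.03e-07 in edgeR's likelihood ratio test). The gene lies on chromosome 10 of GRCm38 from 72654845 to 72674964 on the plus strand, and 0.86% of its 75-base stretches occur in another gene, a processed pseudogene. Of the Rod-Zwilch-ZW10 complex itself, which is not among the 56, Kntc1 fell by 1.26, Zwilch fell by 0.98 and Zw10 fell by 0.25.

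The inner centromere holds the chromosomal passenger complex, in which Aurora B kinase corrects faulty attachments, and shugoshin, which protects cohesion. All 5 of its members were significantly lower, with a median log2 fold change of -1.85. Aurkb, the kinase, had the largest LR statistic of all 56 members (1882), with 115, 114, 114 and 112 CPM in untreated and 26.2, 23.4, 25.8 and 24.9 CPM in treated replicates 1 to 4. The untreated libraries differed by less than 4 CPM, and the log2 fold change was -2.18 (SE 0.0513). Birc5, which encodes survivin, the subunit that targets the complex to chromatin, had 86.9, 84.7, 90.5 and 85.7 CPM and 25.6, 21.5, 24.9 and 24.3 CPM (log2 fold change -1.85, SE 0.0585, LR 1013). Cdca8, or borealin, fell by 1.98, Sgo1 fell by 1.67 and Incenp, the scaffold, fell by 1.36. Incenp had the highest mean of the passenger genes in both groups, 181 ± 5.22 CPM in untreated and 70.4 ± 2.81 CPM in treated libraries.

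Spindle checkpoint proteins gather at unattached kinetochores and assemble the inhibitor of CDC20. The 5 members were all significantly lower, with a median of -1.65. Bub1b, which encodes the inhibitor subunit BUBR1, had 105, 109.7, 111 and 108 CPM in untreated and 27.9, 23.3, 27.4 and 25.9 CPM in treated libraries and fell by 2.06 on the log2 scale (SE 0.0572, LR 1299). Bub1, the kinase that marks centromeric histone H2A, had 81.8, 83.8, 82.4 and 83.0 CPM and 26.3, 24.8, 26.6 and 27.4 CPM and fell by 1.65 (SE 0.0514, LR 1065). The treated means stood at 24.0 and 31.8% of the untreated means, and no treated library came near an untreated one. The kinase gene Ttk, also known as Mps1, fell by 1.85, and Mad2l1, the gene of MAD2, fell by 1.44. Bub3, whose protein binds both BUB1 and BUBR1, fell far less. Its levels were 111, 110.5, 113 and 108 CPM without and 88.6, 96.5, 92.4 and 94.0 CPM with TGFβ1, and the log2 fold change was -0.25 (SE 0.0438, FDR = 2.10e-08 in edgeR's likelihood ratio test).

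Among the kinases and cyclins that drive entry into mitosis, all 7 members were significantly lower, and the median of -1.92 was the lowest of the 9 roles. Ccna2, the gene of cyclin A2, had 242, 243, 250.1 and 235 CPM in untreated and 51.3, 49.1, 56.1 and 57.0 CPM in treated replicates 1 to 4 (log2 fold change -2.18, SE 0.0512, LR 1760.0). Ccnb2, the gene of cyclin B2, had 139.6, 141, 145 and 129 CPM and 25.7, 22.7, 26.7 and 27.7 CPM and fell 5.39-fold, the most of the group (log2 fold change -2.43, SE 0.0629, LR 1465). Cyclin B1 (Ccnb1) fell by 1.73 and their catalytic partner Cdk1 fell by 1.40, the least of the group. For Ccnb1, 18.9% of the 75-base stretches occur in pseudogenes on the same strand, and for Ccna2 10.8% occur in Exosc9 on the opposite strand. The kinase genes Plk1 and Aurka had log2 fold changes of -2.10 (SE 0.109) and -1.92 (SE 0.0686), and Cdc25c, the gene of a phosphatase that activates CDK1, fell by 1.69 (SE 0.0852). Plk1 varied more than most members within each group, from 68.2 to 91.0 CPM in untreated libraries.

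The 4 spindle assembly members were all significantly lower. Nusap1, whose protein bundles microtubules near chromosomes, had 107, 114, 116 and 107 CPM in untreated and 25.3, 24.5, 26.3 and 24.3 CPM in treated libraries and fell by 2.15 (SE 0.0555, LR 1521). Spag5, the gene of astrin, had 107, 104, 103 and 103 CPM and 33.9, 33.3, 32.6 and 34.1 CPM and fell by 1.64 (SE 0.0475, LR 1212). The libraries of a group were within 5 CPM of each other for Spag5, and its SE was one of the smaller ones of the list. Dlgap5, which encodes HURP, fell by 1.81, and Tpx2, the activator of Aurora A, fell by 1.42.

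Cytokinesis was represented by 3 members with similar log2 fold changes, from -1.88 for Prc1, the bundler of the central spindle, to -1.76 for Anln. Anln, the gene of the cleavage furrow protein anillin, had 367, 381, 404 and 359 CPM in untreated and 112, 108, 114 and 114 CPM in treated replicates 1 to 4. Ect2, which encodes the exchange factor that activates RhoA at the furrow, had 182, 176, 189.6 and 183 CPM and 50.2, 48.7, 52.0 and 54.9 CPM and fell by 1.82 (SE 0.0491, LR 1359). All 3 genes were significantly lower, at between 27.1 and 29.6% of the untreated mean.

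The 4 regulators of anaphase were significantly lower, with a median log2 fold change of -1.58. Espl1, the gene of separase, which cleaves cohesin, had 62.6, 61.5, 59.7 and 55.4 CPM in untreated and 19.0, 15.9, 17.1 and 18.2 CPM in treated libraries and fell by 1.77 (SE 0.0667, LR 714). Pttg1, the gene of securin, the inhibitor of separase, had 74.4, 76.8, 76.2 and 69.2 CPM and 29.3, 28.6, 28.8 and 28.3 CPM and fell by 1.37 (SE 0.0546, LR 635). Treated libraries hardly differed from each other for Pttg1, with an SD of 0.403 CPM. Cdc20, an activator of the anaphase-promoting complex, fell by 1.41, and Ube2c, the gene of the E2 enzyme that works with that complex, fell by 1.74. Of the 75-base stretches of Ube2c 10.1% occur in exons of Tnnc2 on the opposite strand.

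The last 4 members are transcription factors of the G2/M program and markers of dividing chromosomes. Top2a, the gene of DNA topoisomerase II alpha, had the most CPM of the 56 members in untreated libraries, 679, 658, 696 and 660.4 CPM, and 209.8, 197, 194 and 196 CPM in treated libraries (log2 fold change -1.76, SE 0.0414, LR 1724). Foxm1, which encodes the factor that activates late cell cycle genes, had 195, 191, 186 and 189 CPM and 56.1, 53.4, 54.0 and 52.1 CPM (log2 fold change -1.82, SE 0.0438, LR 1723). Mki67, the gene of the Ki-67 antigen, fell by 1.84, and Mybl2, the gene of B-MYB, fell by 1.60. For Mybl2, 17.1% of the 75-base stretches occur in other genes on the same strand, with 16.9% in the processed pseudogene Gm3320. The 4 values lay close together, between -1.84 and -1.60.

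A further comparison asked whether related genes, called partners here, changed by the same amount. The 21 pairs joined genes of the same complex or step, and also genes such as Aurkb and Aurka or Mki67 and Top2a. The products of the latter need not act together. For each pair, the log2 ratio of the counts plus 0.5 was taken within each library. This measure does not depend on the scaling of the library. The ratios were compared between the groups with an exact two-sided permutation test, in which 4 against 4 libraries cannot give a p below 0.0286. With adjustment over the 21 pairs, 15 pairs passed 0.05, each at the smallest possible p of 0.0286 (adjusted p = 0.0400, exact permutation test), which requires that the ratios of the groups do not overlap. Such separation was common: it held for 70.7% of the 1540 pairs that the 56 members form and for 68.7% of the 95461653 pairs of genes tested. The count of 15 of 21 was therefore near the background and does not set these partners apart, and the values that follow describe the sizes of the changes. In 7 of the 15 the ratio rose and in 8 it fell.

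The ratio that moved most was that of Cenpt to Cenpw, from 0.79 ± 0.242 to 3.12 ± 0.325 (mean ± SD of the log2 ratio, n = 4 each), a change of 2.33 with an SE of 0.203. Spc25 to Spc24 rose by 1.54 (SE 0.103), Ska3 to Ska1 by 1.42 (SE 0.113) and Cenpe to Cenpf by 1.23 (SE 0.0829). SPC24 and SPC25 proteins form a dimer, as do CENP-T and CENP-W, so that both of these pairs are subunits of one heterodimer whose RNAs changed by different amounts. Smaller rises were those of Cenph to Cenpk (0.86), Cenpu to Cenpq (0.50) and securin to separase, Pttg1 to Espl1 (0.40).

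Ratios of checkpoint genes to Bub3 fell, from -0.03 ± 0.0422 to -1.83 ± 0.166 for Bub1b, a change of -1.80 (SE 0.0855), and with a change of -1.40 for Bub1 (SE 0.0507). Per kilobase of annotated exon, Bub1b RNA was 1.61 times that of Bub3 in untreated libraries and 0.460 times in treated ones, but the order before treatment depends on the exon lengths used, since without that scaling the ratio was 0.939 to 1.00 in the untreated libraries. The ratio of Knl1 to Mis12 changed by -1.34, that of Aurkb to its scaffold Incenp by -0.82 and that of Aurka to its activator Tpx2 by -0.50. Among the cyclins, Ccnb2 to Ccnb1 changed by -0.70 and Ccnb1 to Cdk1 by -0.34. Aurkb to Aurka changed by -0.26, the smallest change that passed.

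In 6 pairs the test was not passed. The change was 0.02 (SE 0.0980, adjusted p = 0.914, exact permutation test) for Cenpn to Cenpl and -0.06 (SE 0.0588, adjusted p = 0.270, exact permutation test) for Ndc80 to Nuf2, both pairs of a tight complex. For Birc5 to Cdca8 it was 0.13 (SE 0.0685), for Mki67 to Top2a -0.08 (SE 0.0535), for Foxm1 to Mybl2 -0.22 (SE 0.0764) and for Ube2c to Cdc20 -0.33 (SE 0.106). The last ratio missed the threshold at an adjusted p of 0.0750 in the exact permutation test, which does not show that these genes changed alike.

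**Figure D4:**
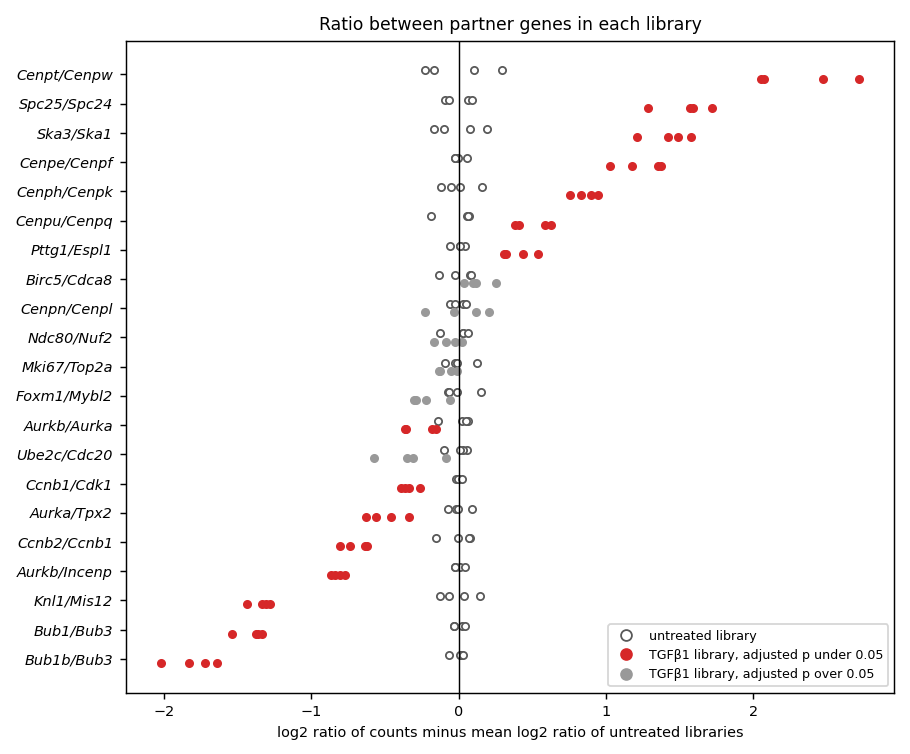
Log2 ratio of the counts of partner genes in each library, minus the mean log2 ratio of the untreated libraries, for 21 pairs; open points are untreated libraries, red points treated libraries of pairs with an adjusted p under 0.05 and grey points treated libraries of the other pairs. The change runs from 2.33 for Cenpt/Cenpw at the top to -1.80 for Bub1b/Bub3 at the bottom.

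Levels of different genes were compared as mean CPM per kilobase of annotated exon. In untreated libraries the highest were Ccnb2 (90.7), Top2a (74.7), Tpx2 (60.7), Ccna2 (59.4) and Cdk1 (52.8), and the lowest was Cenpo (2.90). In treated libraries the order was different. Zwint was now the highest of the 56 at 46.8 CPM per kilobase, having been the 9th, Cenpt the next at 32.4, having been the 34th, and Mis12 the third at 24.6, having been the 18th. Tpx2 followed at 22.6. Ccnb2, the highest before treatment, stood 7th at 16.8, and Cenpf was the lowest at 0.970. The exon length is that of all annotated exons of a gene, which may be longer than the transcripts these cells make.

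**Figure D5:**
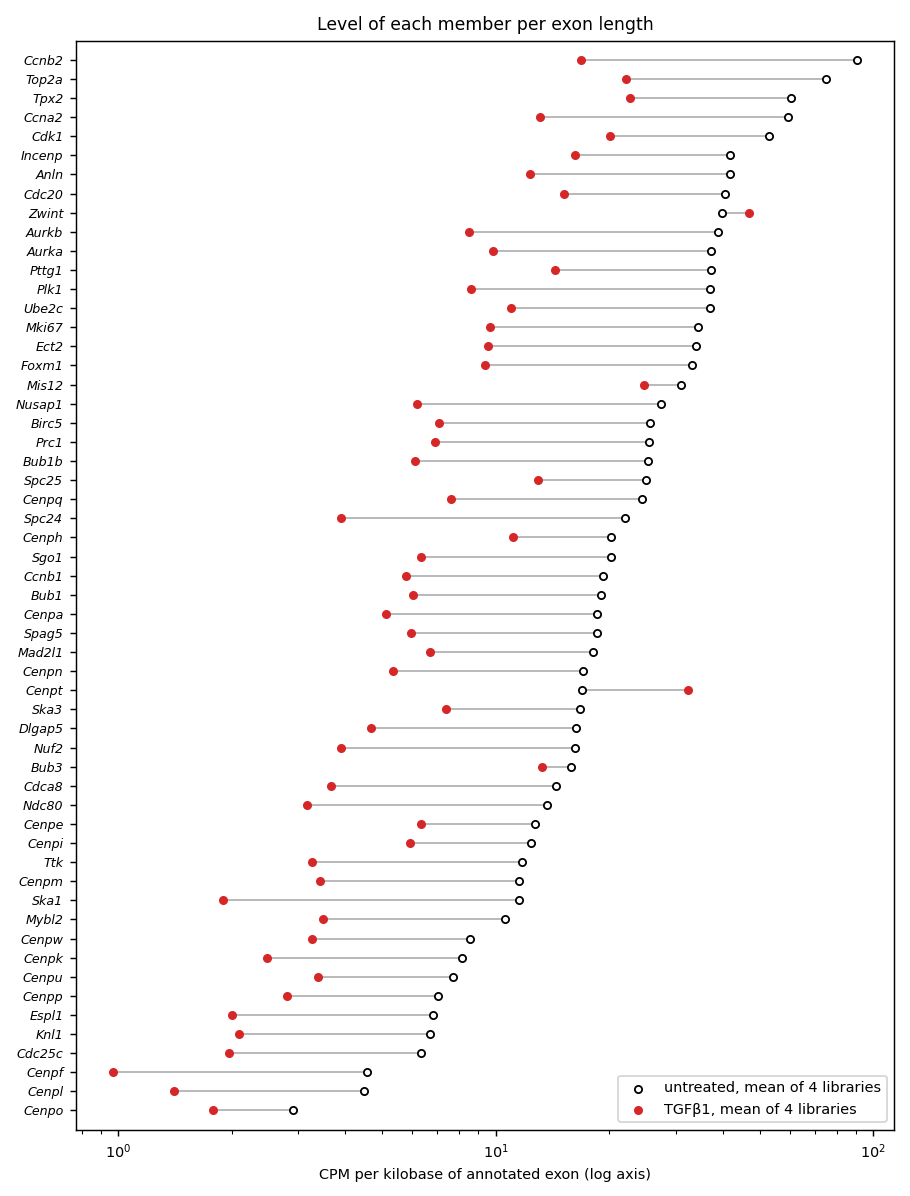
Mean level of each member in CPM per kilobase of annotated exon, on a log axis, in untreated (open points) and TGFβ1-treated (red points) libraries, 4 libraries each, ordered by the untreated level and joined by a line. Zwint and Cenpt are the 2 genes whose red point lies to the right, and Mis12 and Bub3 have the shortest lines to the left.

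Related mitotic genes outside the 56 were examined as 6 lists. Their counts of calls stand beside 38.0% significantly lower and 37.6% significantly higher among all genes tested. Of 20 further kinetochore and checkpoint genes 19 were found by symbol and tested, and 17 of them were significantly lower, with a median log2 fold change of -0.98. Sgo2a, a shugoshin, fell by 1.84 (LR 879) and Spdl1, an adaptor for dynein at the kinetochore, fell by 1.55 (LR 680.1). The 2 that did not pass, named after their values were seen, were Cenpb at -0.17 (SE 0.0979) and Mad1l1 at 0.05 (SE 0.0448). All 8 condensin subunits, which compact mitotic chromosomes, were significantly lower, with a median of -1.11, and the most significant were Smc4 (-1.36) and Ncapg (-1.52). Of 10 kinases and phosphatases of mitotic entry and exit 7 were lower and 1 was higher, with a median of -1.04. Here Nek2, a centrosomal kinase, fell by 2.06 and the phosphatase gene Cdc25b fell by 2.21, and Ensa, the gene of an inhibitor of PP2A-B55, rose by 0.18.

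The remaining lists had medians nearer to 0. Among 10 cohesin subunits and regulators 8 were lower and 2 higher, with a median of -0.28. Rad21, the subunit that separase cleaves, fell by 1.17 and Pds5a fell by 0.49, whereas the loader genes Nipbl and Mau2 rose by 0.09 and 0.13. Of 15 anaphase-promoting complex subunits and activators 8 were lower, 3 higher and 4 not significant, with a median of -0.11. The most significant were Anapc1 (-0.95) and Anapc5 (-0.45), and Anapc4, Anapc13 and Cdc16 rose by 0.23, 0.16 and 0.29. In the list of the MuvB core and its DREAM partners 5 of 10 were lower, 3 higher and 2 not significant, with a median of -0.26. The counts of this list and of the anaphase-promoting complex list were not far from the shares over all genes tested. Those counts do not set the 2 lists apart. Lin54, the subunit that contacts the CHR, fell from 109 ± 1.23 to 53.1 ± 2.85 CPM (log2 fold change -1.04, SE 0.0487), and Lin9 fell by 1.02. Rbl2, the gene of p130, and Tfdp1, a partner of E2F factors, rose by 0.16 and 0.08. Mybl1, the A-MYB gene and a paralogue of Mybl2, rose from 60.2 ± 3.90 to 104 ± 0.395 CPM (log2 fold change 0.80, SE 0.0508, LR 245), in the direction opposite to Mybl2. Treated and untreated libraries overlapped for Anapc13, Mau2 and Rbl2, and the values of Nipbl and Tfdp1 were close to the shift between scalings, since the median log2 fold change of all genes was -0.01 with TMM and -0.07 with library totals alone.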

How the data were processed

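RNA of untreated and TGFβ1-treated SV-LECs was sequenced in 4 libraries per group. Per the labels, bcl2fastq 2.20.0.422, STAR 2.7.3a and featureCounts 1.5.1 were used with GRCm38, and the authors deposited raw read counts per gene without normalization. The strand setting and annotation release are not given in the sources used here. Libraries were grouped by their labels.

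Counts were filtered with filterByExpr, normalized by TMM and fitted in edgeR 4.0.16 (R 4.3.3) by glmFit and glmLRT without a replicate term, as the paper's methods name edgeR and a generalized linear model. FDRs were adjusted over all genes tested. Standard errors of log2 fold changes came from the fitted negative binomial model (common biological coefficient of variation 0.0523). The fit was tested on simulated counts with known changes. Chi-square per degree of freedom between libraries of a group was 2.37 to 7.84, so none were treated as copies. Ratios were tested with scipy 1.17.1. Gene positions, exon lengths and shared 75-base stretches came from GENCODE M21. Depth, 18952504 to 26386941 counts, sets the CPM to which the floor of 3 counts corresponds.

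The members, role groups, pairs and other lists were chosen with earlier results of these data known. Values in every library are given for the 2 members of each role with the largest LR statistic and for members that changed against most of their role, and for Bub3, Mis12, Spc24 and Spc25 because of their values. From other lists the 2 genes with the largest LR statistic and up to 4 that moved the opposite way are named. Alternatives were the quasi-likelihood test, DESeq2 1.42.0, its size factors in edgeR, library totals, a replicate block, glmTreat, a stricter FDR of 0.01, no filter or 1 CPM in 4 or more libraries as the filter, a pseudocount of 0 for ratios and each library left out in turn.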

Additional observations from a re-analysis of the deposited data

Results flagged for a closer look

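Among 156 groups of 4 values (the CPM of each member, each partner ratio and the share of counts in the members, in untreated and in treated libraries), 4 held 1 library far from the other 3 by Dixon's test at the 95% level. Chance flags about 1 in 20 such groups. Cenpq had 17.1 CPM in TGFβ1 replicate 4, below the next value of 20.4 CPM. Spc24 had 11.9 CPM in the same library, above the next value of 9.59 CPM. Incenp had 173 CPM in untreated replicate 4, below the next value of 182.6 CPM. The ratio of Cenpu to Cenpq was 0.426 in untreated replicate 4, below the next value of 0.503.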

How the results depend on the processing

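In all 56 members the direction and the call were kept by DESeq2, its size factors in edgeR, the quasi-likelihood test, library totals, both other filters, an FDR of 0.01 and the omission of each library. The number of members significantly lower was 54 without each library in turn and the number higher was 2, with medians from -1.73 to -1.69. Counts per role were the same without each library: 12 for the inner kinetochore, 10 for the outer kinetochore, 5 for the inner centromere, 5 for the spindle checkpoint, 7 for kinases and cyclins, 4 each for spindle assembly, anaphase regulators and transcription and chromosome markers, and 3 for cytokinesis. With library totals the median log2 fold change of the members was -1.78, a move larger than the SD of 0.0592 between libraries, and the median of all genes was -0.07. Under glmTreat, which tests against a log2 fold change of 1, 47 members were lower and 0 were higher, since the change of Cenpt and Zwint is below that size; Bub3, Cenpe, Cenph, Cenpi, Cenpo, Mis12 and Spc25 were lost. The replicate numbers do not pair the samples: correlations of same-numbered libraries were -0.103, -0.0594, -0.0336 and -0.193. With the replicate block 54 members were lower and 2 higher, and over all genes 5077 were lower and 5075 higher. For the ratios, differences within replicate numbers gave p = 0.125 for each of the 15 pairs that had passed, the smallest p that 4 pairs allow in the exact permutation test. A ratio test with a library left out cannot pass after adjustment, so only its values were computed, and no change in direction occurred among the 15. A pseudocount of 0 kept all 15 calls. Searching TTTGAA alone, an alternative chosen after seeing the data, found CHR letters in 55.8% of member windows, against 11.9% of those of tested genes. Depth was lowest for Ska1 and Cenpm, at 5.06 and 5.54 CPM in treated libraries.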

Other observations

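The CCAAT letters of the members often stood in pairs. At least 2 were present in 48.1% of the 52 member windows, against 14.1% of the windows of genes tested for expression. In 6 of the 47 members a pair on the same strand began 31 to 33 bases apart (12.8%), against 1.75% of tested genes with a window. This spacing was chosen after the windows had been looked at, and no test of it was made. The median GC content was 59.0% in member windows and 61.0% in those of tested genes.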
